A study of Mus musculus with 10 samples.

Results

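The genes described here encode proteins of the tectorial membrane of the cochlea and of the otoconial membranes and cupulae of the vestibule. They were chosen by symbol as a list of 10 of the 32285 genes in the count tables, and all 10 were found: Tecta, Tectb, Otog, Otogl, Otoa, Ceacam16, Otol1, Oc90, Otop1 and Strc. Their levels were followed across cell clusters and between the 2 organs. Cells were dissociated from the cochlea or from the vestibular organs of 22-month-old wild-type CBA/J mice of both sexes, with 7 to 8 mice pooled per library, and sequenced on the 10x Genomics droplet platform. Utricle, saccule and cristae were not separated in the vestibular libraries. There were 5 libraries per organ. In each organ, Bio rep 2 held the same cells as Bio rep 1 (1313 cochlear and 1633 vestibular barcodes were shared, and any other pair shared at most 41) and their counts differed by less than sampling noise, so Bio reps 1, 3, 4 and 5 were used (n = 4 per organ). Young animals are not analysed here. All groups share the same strain and age, so the organ is the only labelled difference.

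The tectorial membrane is a gel that lies over the hair cells (HCs) of the cochlea and is made of collagen fibrils set in a matrix of tectorins. Otoconial membranes in the utricle and saccule carry calcium carbonate crystals, the otoconia, and cupulae cover the cristae. Supporting cells secrete most of this matrix, otoancorin and stereocilin attach it to the epithelium or to the stereocilia, and otoconial proteins seed and order the crystals.

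The 8 libraries held 2738036 to 26974948 unique molecular identifiers (UMIs) each, and 7272 cochlear and 10424 vestibular cells were kept. Levels are given as UMIs of a gene per 1000000 UMIs of the same cells (CPM), mean ± SD over 4 libraries unless stated, and since 3′ counting is not corrected for length, levels are compared between cells and organs and not between genes. Cells were clustered without these 10 genes. Supporting cell (SC)-like clusters carried at least 3 SC markers and held 891 cochlear and 556 vestibular cells. The cochlear ones were a cluster led by Dgkb and Slitrk6 (695 cells, median 2137 UMIs) and a deeper one led by Pcdh17 and Lockd (196 cells, median 11044.5 UMIs). Since UMIs were summed, class levels weigh deeper cells more. HCs numbered 154 in the cochlea (78 outer HC-like and 76 inner HC-like) and 1777 in the vestibule (1496 in groups marked by Adam11 and 281 in groups marked by Sox2). The tissue is labelled sensory epithelium, yet HCs made up 1.62% to 4.55% of kept cells in the cochlear libraries and 14.7% to 22.6% in the vestibular ones. A vestibular cluster of 270 cells with a median of 11498.5 UMIs carried 6 HC and 5 SC markers together. These mixed cells, and HC subclusters of 68 cochlear and 228 vestibular cells that carried at least 3 SC markers or had markers of another class among their leading genes, were left out of the HC and SC-like classes, and no doublet caller was run.

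On the mouse genome build GRCm38, the genes lie apart from each other. Tecta spans chr9:42329619-42399929 on the minus strand, Tectb chr19:55180733-55196313 on the plus strand, Otog chr7:46240987-46311434 on the plus strand and Otogl chr10:107760531-107912134 on the minus strand. Otoa lies at chr7:121081650-121163097 on the plus strand, Ceacam16 at chr7:19852097-19861299 on the minus strand and Otol1 at chr3:70007613-70028708 on the plus strand. Oc90 lies at chr15:65876053-65912397 on the minus strand, Otop1 at chr5:38275972-38304217 on the plus strand and Strc at chr2:121363728-121387168 on the minus strand. All 10 are annotated as protein coding. Tecta, Ceacam16 and Strc overlap Gm47629, Gm19345 and Ckmt1 on the other strand, Tectb hosts Mir6715, and the annotation tags Otop1 for an error in the reference genome.

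Upstream sequence was available for 7 of the 10 genes from RefSeq on GRCm38.p6 (Otogl, Ceacam16 and Oc90 had none). The 250 bases before the start are shown for Otog, which had a UMI in all cells of an SC-like cluster, for Tectb, which few cells carried, and for Strc, the gene of the set found mainly in HCs. Positions count from the RefSeq start, which for Strc, Otoa and Otop1 lies inside the gene span given above, so that these windows are not upstream of the whole annotated gene. Capitals mark matches to motifs searched on both strands.
Otog, chr7:46240737-46240986, plus strand: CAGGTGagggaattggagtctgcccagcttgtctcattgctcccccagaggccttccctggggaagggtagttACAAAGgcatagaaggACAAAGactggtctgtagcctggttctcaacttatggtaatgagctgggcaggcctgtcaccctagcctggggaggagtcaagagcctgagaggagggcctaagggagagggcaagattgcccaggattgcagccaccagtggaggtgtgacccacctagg
Tectb, chr19:55180476-55180725, plus strand: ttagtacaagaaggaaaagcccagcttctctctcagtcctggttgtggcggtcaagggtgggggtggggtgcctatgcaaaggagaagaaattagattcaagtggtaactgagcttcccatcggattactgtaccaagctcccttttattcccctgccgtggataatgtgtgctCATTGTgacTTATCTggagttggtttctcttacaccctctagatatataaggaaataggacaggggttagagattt
Strc, chr2:121380941-121381190, minus strand: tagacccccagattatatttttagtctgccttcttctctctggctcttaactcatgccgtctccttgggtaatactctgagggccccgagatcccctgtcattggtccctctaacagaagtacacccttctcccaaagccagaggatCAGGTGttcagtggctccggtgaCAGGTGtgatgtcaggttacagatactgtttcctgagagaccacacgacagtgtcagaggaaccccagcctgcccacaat
The Otog window held the A form of the SOX core, ACAAAG, starting 177 and 161 bases before the start. This form was present in 16.5% of 32817 windows of the same length. At its first bases the Otog window also held an E-box of the GG form, CAGGTG, which 17.2% of all windows held. The Tectb window held the T form of the SOX core on its other strand, 76 bases before the start, where the letters searched were ACAATG and 10.7% of all windows held them. A GATA core followed 67 bases before the start, also on the other strand, and this motif, AGATAA, was in 9.99% of all windows. The Strc window held the GG form of the E-box 103 and 80 bases before the start. The Tecta window at chr9:42399948-42400197 held the A form of the SOX core 155 and 224 bases before the start. Tecta also had a window at another RefSeq start, chr9:42401691-42401940, which held no match. Otop1 held the GG form of the E-box 119 bases before its start, and Otol1 and Otoa held no match. No match in any window of the 7 genes was found for a TATA box with the letters TATAAA, held by 12.4% of all windows. The GC form of the E-box, with the letters CAGCTG, was in 13% of all windows and in no window of the 7 genes. A homeodomain core with the letters TAATTA was in 4.85% of all windows and likewise in no window of the 7 genes.

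**Figure D1:**
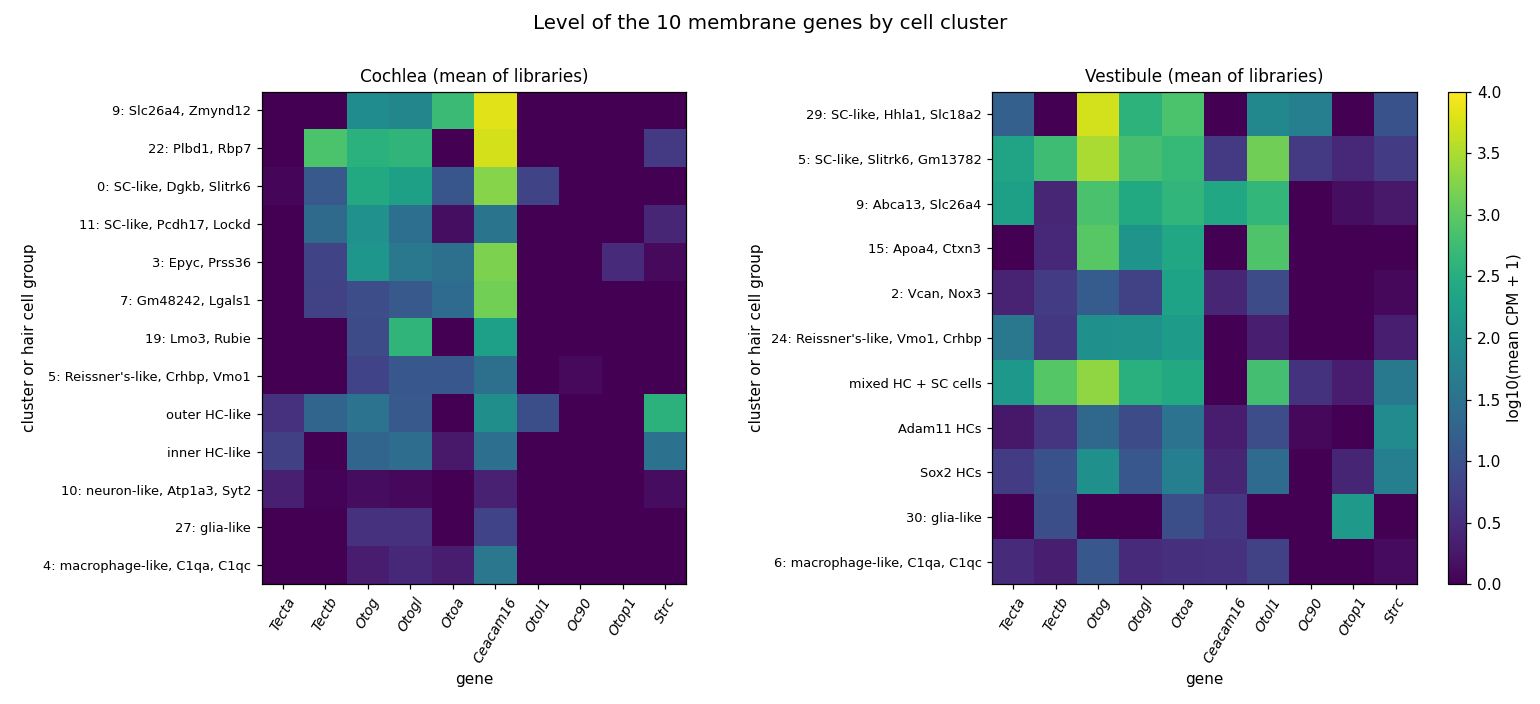
Level of each of the 10 genes, as log10(mean CPM + 1) over libraries (color), in the cochlear (left) and vestibular (right) clusters where the genes were highest, with HC, neuron-like, glia-like and macrophage-like groups for reference. Within a column, Ceacam16 is high in 5 cochlear clusters, Otog, Otogl and Otoa are high in the vestibular SC-like clusters and Otol1 in that led by Slitrk6, Strc stands out in outer HC-like cells and Otop1 in a vestibular glia-like cluster.

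Between organs, SC-like cells differed in every member that could be tested. Of the 10 genes, 7 passed the filter on low counts and all 7 were called at an adjusted p under 0.05, 6 higher in the vestibule and Ceacam16 higher in the cochlea. In the same comparison 29.2% of all 7607 genes tested were called, 12.3% higher in the cochlea and 16.9% higher in the vestibule. The median log2 difference (cochlea minus vestibule) was -4.60 over the 7 members and -0.0040 over all genes tested. Since RNA was counted per cell class, fewer cells of a type within a class and less RNA per cell cannot be told apart. Median UMIs per cell were 2722 in cochlear and 2166 in vestibular SC-like cells.

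Tecta encodes α-tectorin, the main non-collagen protein of the tectorial membrane. In vestibular SC-like cells it was at 199, 194, 152 and 181 CPM in Bio reps 1, 3, 4 and 5, while the 891 cochlear SC-like cells held 1 UMI, and the groups did not overlap. The cochlea-to-vestibule ratio of pooled CPM was 0.0011 (95% counting interval 2.8e-05 to 0.0062; edgeR adjusted p = 8.1e-12). In all cochlear cells 18 UMIs of Tecta were found, 11 of them in neuron-like cells, against 1108 UMIs in vestibular cells. Within the vestibule, the SC-like cluster led by Slitrk6 and Gm13782 (463 cells) was at 216 ± 23.2 CPM and an epithelial cluster led by Abca13 and Slc26a4 (347 cells) at 187 ± 69.0 CPM, and their libraries overlapped. The other SC-like cluster, led by Hhla1 and Slc18a2 (93 cells), held 1 UMI. A cluster that carried Reissner's membrane markers (113 cells) was at 39.2 ± 18.5 CPM.

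Tectb encodes β-tectorin, which forms the striated-sheet matrix with α-tectorin. Vestibular SC-like cells were at 158, 833, 675 and 228 CPM in Bio reps 1, 3, 4 and 5, and cochlear ones from 1.20 to 52.2. All vestibular libraries were above the cochlear ones although they differed among themselves by more than for Tecta. The log2 difference was -4.60 ± 0.60 (SE; edgeR adjusted p = 5.7e-06). It was -2.56 with finer clustering and -2.32 with at least 2000 UMIs per cell, and -5.62 without cochlea Bio rep 4, and it was called each time.

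Tectb was carried by few cells at high counts. In the Slitrk6 cluster, 58 of 463 cells (12.5%) had a UMI, and the 50 cells with at least 3 UMIs held 98.9% of its UMIs, with up to 162 in a cell. The share of cells with at least 3 UMIs was 3.16%, 12.7%, 14.7% and 8.00% in the 4 libraries. No Tectb UMI was found in the 93 cells of the Hhla1 cluster, which allows a share of cells with a UMI of up to 3.23% (3 of 93, counting error only). The mixed HC and SC cluster held 76.2% of all vestibular Tectb UMIs, at 178, 1208, 892 and 1266 CPM. In the cochlea, a small epithelial cluster led by Plbd1 and Rbp7 (126 cells) was at 734 ± 570.1 CPM (1532, 423, 735 and 243) and held 73.8% of cochlear Tectb UMIs, and 28 of its cells held 96.8% of those. This cluster carried 2 SC markers, below the 3 needed for a class, so it did not enter the SC-like comparison.

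Cells of the Slitrk6 cluster with at least 3 Tectb UMIs were compared with cells without Tectb in the 2 libraries that held at least 5 of them (24 cells in Bio rep 3 and 19 in Bio rep 4). Otol1 was at 1443 CPM in Tectb-carrying cells and 900.0 in the others in Bio rep 3, and at 1548 and 1147 CPM in Bio rep 4. Otog was at 3525 and 2656 CPM in Bio rep 3 and at 2633 and 2820 CPM in Bio rep 4, and Tecta at 270.5 and 209 CPM and at 162 and 212 CPM. Otol1 was thus higher in Tectb-carrying cells in both libraries, while Otog and Tecta differed in direction between them. In the cochlear Plbd1 cluster, Ceacam16 was lower in Tectb-carrying cells in Bio rep 1 (1547 against 15556 CPM) and Bio rep 3 (1112 against 3267 CPM), where these numbered at least 5. In Bio rep 4, with 3 such cells, Ceacam16 was also lower (1041 against 8515 CPM). In Bio rep 5, with 3 such cells, it was higher (3562 against 2513 CPM). None of these differences was tested.

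**Figure D2:**
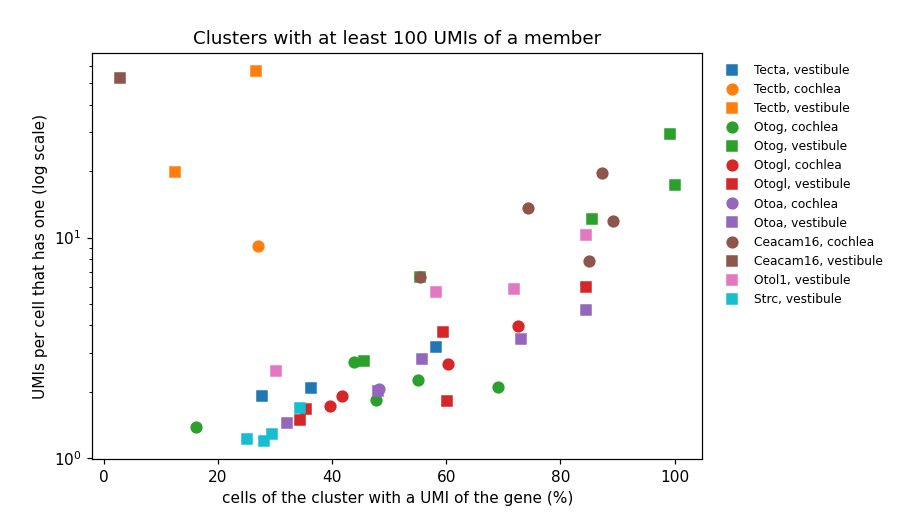
Share of a cluster's cells with at least 1 UMI of a gene (x axis, %) against the mean number of UMIs in those cells (y axis, log scale), for clusters with at least 100 UMIs of the gene, cochlea as circles and vestibule as squares. Tectb lies at the upper left, with 12.5% to 26.98% of cells in its clusters, as does Ceacam16 in a vestibular cluster where 6 cells held 520 UMIs, while Otog in vestibular SC-like clusters lies at the upper right.

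Otog encodes otogelin, a mucin-like glycoprotein of all acellular membranes of the inner ear. It was at 4591, 3007, 3395 and 2724 CPM in vestibular SC-like cells and at 197, 165, 159 and 201 CPM in cochlear ones (3429.6 ± 822 against 180.2 ± 21.6). Every vestibular library was above every cochlear one, with a log2 difference of -4.16 ± 0.25 (edgeR adjusted p = 1.9e-10), which corresponds to 17.9-fold (95% interval 12.76 to 24.996). All 93 cells of the Hhla1 cluster had a UMI of Otog, at 5399.5 ± 492 CPM, and 396 of 463 cells of the Slitrk6 cluster, at 3076 ± 832 CPM. The libraries of these clusters did not overlap. An epithelial cluster led by Apoa4 and Ctxn3 followed at 922 ± 467 CPM and the Abca13 cluster at 700.0 ± 328 CPM, and these overlapped. The highest cochlear levels were in the Plbd1 cluster (357 ± 155 CPM) and in the SC-like cluster led by Dgkb and Slitrk6 (265 ± 32.3 CPM), whose libraries also overlapped. The other cochlear SC-like cluster, led by Pcdh17, was at a mean of 106 CPM.

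Otogl encodes otogelin-like, a relative of otogelin. It was at 719, 593, 459 and 679 CPM in vestibular SC-like cells and at 94.5, 118, 90.3 and 112 CPM in cochlear ones. The groups did not overlap, and the log2 difference was -2.45 ± 0.22 (edgeR adjusted p = 3.8e-08), or 5.48-fold (95% interval 4.07 to 7.38). In the vestibule Otogl was higher in the Slitrk6 cluster (664 ± 106 CPM) than in the Hhla1 cluster (388 ± 144 CPM), the reverse order of Otog, although the libraries of these clusters overlapped for Otogl. In the cochlea, the Plbd1 cluster (419.9 ± 187 CPM) and a cluster led by Lmo3 and Rubie (412 ± 258 CPM) had higher means than the Dgkb cluster (185 ± 21.3 CPM), and the Lmo3 cluster ranged from 39.2 CPM in Bio rep 5 to 633 CPM in Bio rep 3.

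Ceacam16 encodes an adhesion-family protein secreted into the tectorial membrane, where it binds α-tectorin. It was the member called higher in the cochlea, at 736, 990.4, 935 and 983 CPM in SC-like cells against 2.72, 2.24, 6.62 and 0 CPM in the vestibule. The cochlear class joined unlike clusters. The Dgkb cluster was at a mean of 1878 CPM, and the mean of the Pcdh17 cluster was below 180 CPM, the mean of the Lmo3 cluster. The log2 difference was 8.19 ± 0.38 (edgeR adjusted p = 8.1e-12), or 291-fold (95% interval 174 to 486). It was 9.65 with at least 2000 UMIs per cell and 9.53 with finer clustering. Of cochlear SC-like cells 70.03% had a UMI (exact 95% interval 66.9% to 73.0%) against 6.20% of cochlear macrophage-like cells (4.01% to 9.09%), which should lack the gene. With each cell thinned to 1000 UMIs the shares were 56.8% and 3.62%. Cochlear macrophage-like cells were at 37.1 ± 22.5 CPM, and levels at or below this in cochlear cells can be background.

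Higher Ceacam16 levels were found outside the SC-like class. A cochlear cluster led by Slc26a4 and Zmynd12 (232 cells) was at 6413, 5147, 7225 and 7372 CPM, and the Plbd1 cluster at 10068, 2563, 7065 and 2629.8 CPM. Their libraries overlapped, and all lay above those of the Dgkb SC-like cluster (1878 ± 295 CPM). Clusters led by Epyc and Prss36 (1610.4 ± 415 CPM) and by Gm48242 and Lgals1 (1389 ± 297 CPM) overlapped with the Dgkb cluster. By UMIs, 27.8% of cochlear Ceacam16 was in the Dgkb cluster, 20.4% in the Gm48242 cluster, 14.8% in the Slc26a4 cluster, 13.9% in the Epyc cluster and 12.99% in the Plbd1 cluster. In the vestibule, 520 of the 526 UMIs in the Abca13 cluster came from 6 cells. Of these, 5 were in Bio rep 3, with a median of 15321 UMIs against 1682.5 in its cells without Ceacam16. The 5 cells held no UMI of Otoa, Otol1 or Tecta, which were at 457, 263 and 296 CPM in the cells without Ceacam16. They are thus unlike the rest of the cluster.

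Otoa encodes otoancorin, which anchors these membranes to the surface of non-sensory cells. Vestibular SC-like cells were at 495, 478, 539 and 565 CPM and cochlear ones at 1.97, 6.37, 4.35 and 9.61. The groups did not overlap, and the log2 difference was -6.29 ± 0.30 (edgeR adjusted p = 1.1e-11). Although cochlear SC-like cells were low, the cochlear Slc26a4 cluster was at 493, 568, 517 and 532 CPM and held 49.9% of cochlear Otoa UMIs. That range overlapped with that of the vestibular SC-like cells. The Slc26a4 cluster was in no named class and so was not part of the test. In the vestibule Otoa reached 734 ± 93.0 CPM in the Hhla1 cluster, 469 ± 58.3 CPM in the Slitrk6 cluster, 422 ± 78.9 CPM in the Abca13 cluster and 207 ± 33.1 CPM in a cluster led by Vcan and Nox3.

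Otol1 encodes otolin, a collagen-like protein that scaffolds otoconia. It was at 1377, 875, 903 and 1393 CPM in vestibular SC-like cells and at 1.97, 4.87, 0 and 4.81 CPM in cochlear ones. The log2 difference was -8.18 ± 0.41 (edgeR adjusted p = 1.7e-11), or 290-fold (95% interval 167 to 503). In all cells, 5446 vestibular and 29 cochlear UMIs were found. The Slitrk6 cluster was at 1347 ± 316 CPM and the Hhla1 cluster at 71.4 ± 17.6 CPM, with no overlap, so that the order of the SC-like clusters for Otol1, Tecta and Tectb was the opposite of that for Otog. The Apoa4 cluster was at 786 ± 428 CPM and the Abca13 cluster at 437 ± 195 CPM.

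Oc90 encodes otoconin-90, the main protein of otoconia, and Otop1 encodes otopetrin 1, a proton channel needed for otoconia to form. Neither passed the filter on low counts. Oc90 was detected by 37 UMIs in vestibular cells and 1 in cochlear cells, and 17 of the 37 were in the 93 cells of the Hhla1 cluster (167, 19.7, 24.9 and 0 CPM). In SC-like cells it had 23 vestibular UMIs, at 38.1, 4.49, 11.04 and 0 CPM in Bio reps 1, 3, 4 and 5, and no cochlear UMI, and Bio rep 1 was the highest library. Otop1 had 44 vestibular and 2 cochlear UMIs, and 32 of the 44 were in 26 of the 87 cells of a glia-like cluster, at 95.7, 103 and 237 CPM in Bio reps 3, 4 and 5 (Bio rep 1 had fewer than 5 such cells). The 556 vestibular SC-like cells held 4 UMIs of Otop1.

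**Figure D3:**
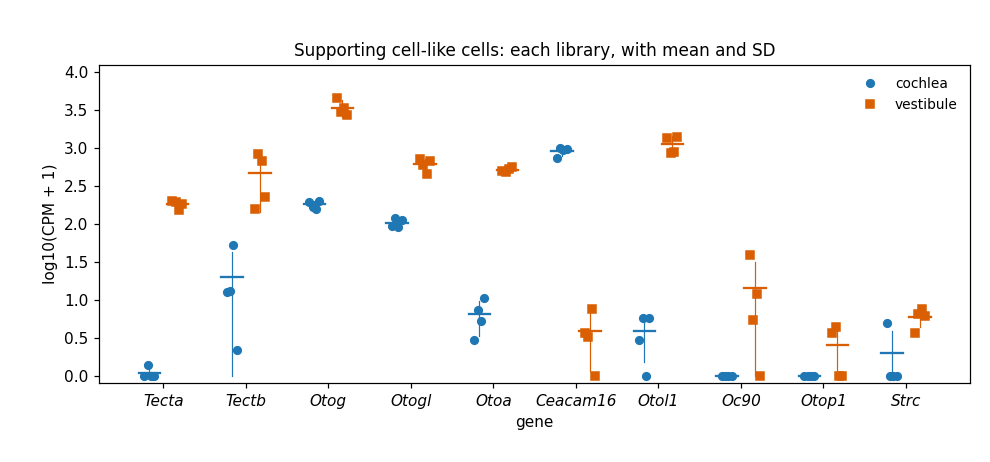
Level of each gene in SC-like cells as log10(CPM + 1), with a point per library (4 cochlear circles, 4 vestibular squares), a bar at the mean and a line for the SD. The organs do not overlap for Tecta, Tectb, Otog, Otogl, Otoa, Ceacam16 and Otol1, with Ceacam16 from 736 to 990.4 CPM in the cochlea and up to 6.62 CPM in the vestibule. Of all 7607 genes tested in SC-like cells, 27.6% did not overlap.

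Vestibular SC-like cells often carried several of these genes together. At least 3 of the 10 genes had a UMI in 66.2% of vestibular SC-like cells and in 19.3% of cochlear ones, against 1.86% of vestibular and 5.84% of cochlear HCs, and 0.275% and 0.258% of macrophage-like cells in the vestibule and cochlea. Median UMIs per cell were higher in HCs (4052 vestibular and 3470.5 cochlear) than in SC-like cells (2166 and 2722).

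In HCs, 3 of the 10 genes passed the filter and 2 were called, Otoa higher in the vestibule and Strc higher in the cochlea. Of all 7685 genes tested in HCs, 30.6% were called, 12.6% higher in the cochlea and 18.0% higher in the vestibule. The library ranges of the 2 organs did not overlap for 30.6% of the genes tested.

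Strc encodes stereocilin, which links stereocilia to each other and outer HC bundles to the tectorial membrane. It was at 374, 58.5, 124 and 172 CPM in cochlear HCs and at 96.1, 66.1, 70.5 and 73.4 CPM in vestibular ones. The libraries overlapped, and the log2 difference was 0.97 ± 0.34 (edgeR adjusted p = 0.033). The call was lost without cochlea Bio rep 1 (0.45, adjusted p = 0.22), without cochlea Bio rep 5 (adjusted p = 0.098) and without vestibule Bio rep 3, 4 or 5 (adjusted p = 0.075, 0.066 and 0.064). The adjusted p ranged from 6.7e-10 to 0.77 over all alternatives.

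Cochlear libraries differed in their mix of HC types, and Bio rep 1, with the highest Strc level, had the highest share of outer HC-like cells. Outer HC-like cells made up 92.3%, 40.2%, 57.1% and 40.6% of cochlear HCs in Bio reps 1, 3, 4 and 5. Strc was at 424, 224, 365 and 459.7 CPM in outer HC-like cells and at 16.3, 38.7 and 34.7 CPM in inner HC-like cells of Bio reps 3, 4 and 5 (Bio rep 1 had 2 such cells). Vestibular Adam11 HCs were at 82.9 ± 15.5 CPM and Sox2 HCs at 52.2 ± 13.1 CPM, with no overlap. Both means lay between those of the cochlear groups, and the libraries of Sox2 HCs overlapped with those of inner HC-like cells. In fits chosen after these values were seen, outer HC-like cells were 4.55-fold above vestibular HCs (log2 2.19 ± 0.25, edgeR adjusted p = 6.7e-10), and inner HC-like cells were 3.07-fold below them (log2 -1.62 ± 0.38, adjusted p = 0.0011, 3 against 4 libraries). Of the inner HC-like cells, 32 formed a subcluster with 1 enriched inner HC marker, a median of 1790 UMIs and Slc17a8 in 37.5% of cells. Their part in the inner HC-like values was not tested. Strc was at 0.985 ± 1.97 CPM in cochlear and 5.03 ± 1.66 CPM in vestibular SC-like cells.

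**Figure D4:**
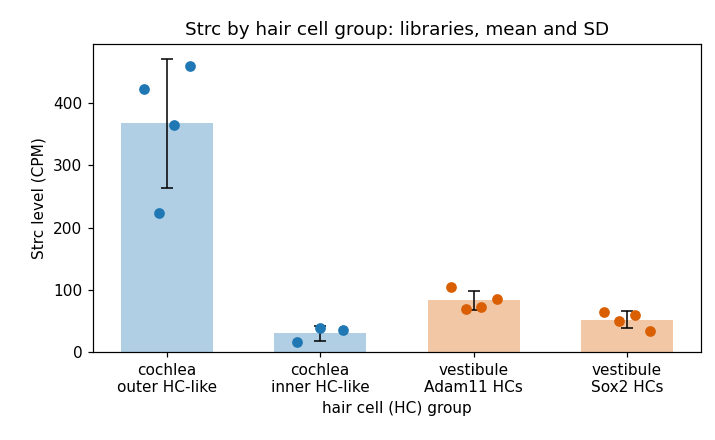
Strc level (CPM) by HC group, with a point per library, bars at the mean and lines for the SD (n = 4, or 3 for inner HC-like cells). Outer HC-like cells lie from 224 to 459.7 CPM, above every library of the other 3 groups.

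Otoa in HCs was at 26.2, 35.4, 50.7 and 32.0 CPM in the vestibule, and cochlear HCs held 1 UMI. The cochlea-to-vestibule ratio of pooled CPM was 0.0347 (95% counting interval 0.000875 to 0.195; edgeR adjusted p = 5.1e-05), and the libraries did not overlap. Otoa in vestibular HCs amounted to 6.95 ± 1.89% of the level in SC-like cells of the same library, above the 0.462% to 1.99% found for Otog and the 0.634% to 1.67% found for Otol1 in the same cells. Of vestibular HCs 11.8% had a UMI of Otoa (3.60% after thinning), against 1.37% of macrophage-like cells (0.549% after thinning), with median depths of 4052 and 2766 UMIs.

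The other members were low in HCs. Otog was at 19.4 ± 10.6 CPM in cochlear and 36.7 ± 21.3 CPM in vestibular HCs (log2 -0.50 ± 0.50, edgeR adjusted p = 0.51, 95% interval of the fold from 2.78-fold lower to 1.40-fold higher in the cochlea). Otogl was too low to test, at 24.1, 28.2, 19.05 and 15.6 CPM in cochlear HCs and 4.99, 8.503, 11.1 and 8.72 CPM in vestibular HCs, with no overlap. Ceacam16 was at 302, 30.3, 9.52 and 46.9 CPM in cochlear HCs, and 25 of its 46 UMIs came from Bio rep 1. Tecta, Tectb, Otol1, Oc90 and Otop1 were at 11.2 CPM or less on average in HCs of either organ. In a fit that counted the set-aside HC subclusters and the mixed cells as HCs, Otog was called lower in the cochlea (log2 -2.84 ± 0.36). The mixed cells held 48.8% of vestibular Otog UMIs, so this fit does not describe HCs alone.

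**Figure D5:**
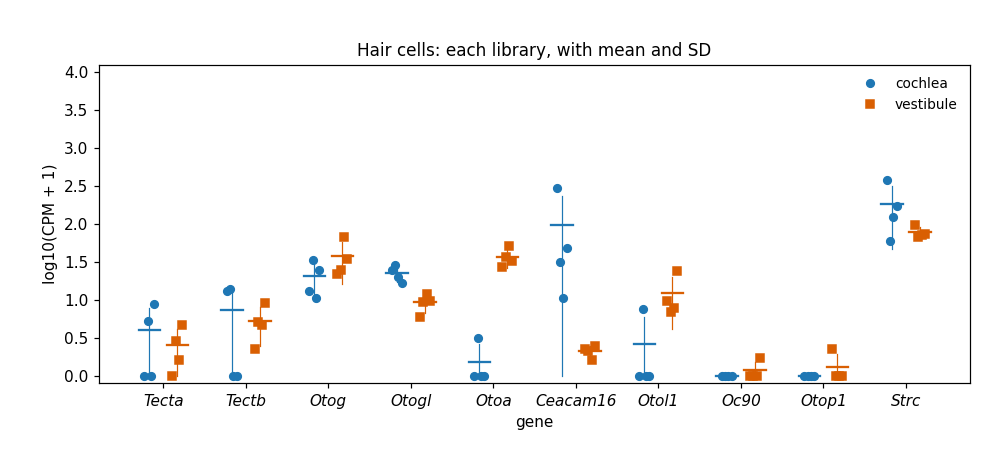
Level of each gene in HCs as log10(CPM + 1), drawn as for SC-like cells (4 cochlear circles, 4 vestibular squares, mean and SD). Otoa, Otogl and Ceacam16 do not overlap between organs, while the Strc libraries do, from 58.5 to 374 CPM in the cochlea and from 66.1 to 96.1 CPM in the vestibule.

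A wider class of otic epithelial cells other than HCs joined the SC-like clusters with other clusters that carried at least 3 epithelial markers. It held 1416 cochlear and 2263 vestibular cells. The cochlear Slc26a4 and Plbd1 clusters carried 2 such markers and were left out, while the vestibular Abca13 cluster, with 5, was kept. The organs were thus compared on unlike sets of clusters. In this class the same 7 genes were tested and called. Of 9665 genes tested, 21.6% were called, 9.49% higher in the cochlea and 12.1% higher in the vestibule. Otogl differed least, at 129 ± 32.0 CPM in the cochlea and 257 ± 97.4 CPM in the vestibule (log2 -0.86 ± 0.26, edgeR adjusted p = 0.028), and this call was lost without cochlea Bio rep 1, 3 or 5 or vestibule Bio rep 1 or 5 (adjusted p from 0.051 to 0.10), with finer clustering and with 2 epithelial markers required in place of 3 (adjusted p = 0.058 for each). Tectb (log2 -3.31 ± 0.61, adjusted p = 0.0015) lost its call with finer clustering (-1.13), with at least 2000 UMIs per cell (-1.33) and with 2 epithelial markers (-1.18). Otoa was at -5.41, and at -3.18 with 2 epithelial markers, and was called both times. Ceacam16 rested on vestibule Bio rep 3 for its size, with a log2 difference of 4.25 ± 0.87 (adjusted p = 0.0032) and 7.22 without that library. The vestibular side also held a cluster led by Bpifa1 and Reg3g (136 cells, 100% from 1 library). Another, led by AU040972 and Ccdc153, had 108 cells, 96.3% from 1 library. Whether these clusters are otic was not tested. Without clusters mostly of 1 library, all 7 members kept their direction and call.

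In all kept cells, which reflects the cell makeup of a library as well as levels, 8 members were tested and 7 called, where 24.7% of 14530 genes were called, 11.1% higher in the cochlea and 13.6% higher in the vestibule. Among the members Otol1 had the widest difference (log2 -7.77 ± 0.59, edgeR adjusted p = 9.9e-06), and Ceacam16 was at 649.5 ± 170.4 CPM in the cochlea and 11.6 ± 14.3 CPM in the vestibule. Strc was lower in the cochlea here (7.21 ± 7.40 against 22.5 ± 6.06 CPM, log2 -1.95 ± 0.55, adjusted p = 0.026), beside the smaller share of HCs in cochlear libraries, whose part was not tested. Its call was lost without cochlea Bio rep 4 or 5 or vestibule Bio rep 1 or 4 (adjusted p from 0.053 to 0.076). Otogl was not called (log2 -0.86 ± 0.32, adjusted p = 0.084).

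Genes that act with these proteins were counted from 2 lists. Of 7 genes for otoconia formation, 6 were tested in SC-like cells and 3 were called, all higher in the vestibule, with a median log2 difference of -1.32, where 29.2% of all 7607 genes tested were called and their median was -0.0040. These were Sparcl1, a matricellular protein (28.1 ± 27.03 against 1654 ± 395 CPM, log2 -5.93 ± 0.45, edgeR adjusted p = 3.7e-09), Slc26a4, the anion exchanger pendrin (8.34 ± 8.19 against 133 ± 33.5 CPM, log2 -4.26), and Cyba, a subunit of NADPH oxidases (29.8 ± 10.7 against 123 ± 25.5 CPM, log2 -1.91). Noxo1, Atp2b2 and Sparc were tested and not called. In the wider otic epithelial class, whose clusters are unlike between organs, 5 of 7 were called, all higher in the vestibule. Of the 9665 genes tested there, 21.6% were called. Among the 5, Nox3, the catalytic oxidase subunit, had 2416 vestibular UMIs and none in the cochlea. That makes Nox3 at least 784-fold lower there. Its highest level was 1341 ± 185 CPM in the vestibular cluster led by Vcan and Nox3, where Oc90 had no UMI. In HCs, Atp2b2, a calcium pump of stereocilia, was at 397 ± 362 CPM in the cochlea and 1404 ± 155 CPM in the vestibule (log2 -1.94 ± 0.38, adjusted p = 0.00034). The cochlear libraries were at 929.8, 121, 295 and 242 CPM and outer HC-like cells at 1052, 565, 1058 and 702 CPM, and the part of the mix of HC types was not tested.

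Of 8 genes for the collagens and other gel matrix proteins, 7 were tested in the same SC-like comparison and 5 were called, all higher in the vestibule. In that comparison 29.2% of all 7607 genes tested were called. The median log2 difference of the 7 was -3.18 and stays the same with Zpld1 at its bound. Zpld1, a zona pellucida protein of the cupula, had 167 vestibular and no cochlear UMIs (at least 144-fold lower in the cochlea), and was highest in the Hhla1 cluster at 574 ± 260.0 CPM. Col11a1 was at 28.3 ± 10.6 CPM in cochlear and 389 ± 145 CPM in vestibular SC-like cells (log2 -3.69 ± 0.29, edgeR adjusted p = 7.7e-09). Col9a2 (log2 -4.07), Col9a1 (-3.18) and Col11a2 (-1.12, with overlapping libraries) were also called, Col9a3 and Emilin2 were not, and Col2a1 was too low to test. In all kept cells Emilin2, a matrix glycoprotein, was higher in the cochlea (860.3 ± 397 against 55.1 ± 13.003 CPM, log2 3.95 ± 0.39, adjusted p = 5.6e-05), with its highest levels in clusters led by Otor.

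Over 61 clusters of both organs, the genes whose log2(CPM + 1) pattern was most like each member were ranked by Pearson's r among 17068 genes. The clusters share libraries, so these values are a description. Otog and Otogl were close to each other (r = 0.828), and Otogl was closest to Muc15 (0.871). Strc was closest to Grxcr1 (0.946), Dytn (0.945) and Grxcr2 (0.938), of which Grxcr1 and Grxcr2 encode stereocilia proteins. Otoa was closest to Chst5 (0.873) and Ssc4d (0.831), and Ceacam16 to Epyc (0.825). Otol1 was closest to Dlx1 (0.864), Bpifb4 (0.846) and Dlx2 (0.837), and Tecta to Cpvl (0.763). Tectb had the loosest best match, Cep41 (0.669). Oc90, from few UMIs, was closest to Fgf3 (0.869), and Otop1 to Pdzd3 (0.932). The r of Ceacam16 with the other members ranged from -0.350 with Otol1 to 0.306 with Otogl.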

How the data were processed

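Single cells were measured in 10 libraries, 5 per organ. The deposited files hold UMI counts per gene and cell barcode, made by the authors with Cell Ranger on mm10 (file headers 5.0.1 or 6.1.2; labels 6.1.2) and already limited to called cells. Summed counts were turned into CPM. From these, barcodes were kept if they had 200 or more genes, 1000 or more UMIs and a mitochondrial share under 25%, and were clustered per organ with Seurat 5.3.0 (2000 variable genes without the 10 members, 30 components, resolution 1; HCs again at 0.5). A class needed 3 enriched markers (in at least 25% of cells, log2 fold of at least 1). Cochlear HC subclusters were named by a looser rule. They needed 3 markers of a type in at least 25% of cells and more enriched markers of that type than of the other. Inner HC-like cells came from subclusters of 44 and 32 cells with 2 and 1 enriched inner HC markers. Names were rebuilt from markers and may differ from the study's. HC subclusters were set aside by rules chosen after the clusters were seen. The labelled type I HC name was not reached, so vestibular HCs are called by Adam11 and Sox2.

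UMIs were summed per library and class (at least 5 cells), and the organs compared with edgeR 4.0.16 (quasi-likelihood test, TMM, filterByExpr, Benjamini-Hochberg over all genes tested, adjusted p under 0.05, two-sided; R 4.3.3). Clusters were not tested against each other. Members, lists and named genes (all members, both lists, and the 3 closest patterns per member) were chosen with earlier results of these data known. Libraries are labelled as biological replicates of pooled mice, and p-values measure the spread between them. A fold against 0 was computed against 3 counts. Intervals of shares are exact binomial at 95%, and all intervals on UMIs cover counting error only. In a simulation where 200 genes were shifted by a log2 fold of 2, 100% of 197 tested changed genes were recovered in SC-like cells (7607 genes), 100% of 200 in other otic epithelial cells (9665 genes), 96.9% of 196 in HCs (7685 genes) and 89.9% of 199 in all kept cells (14530 genes), and unchanged genes made up 2.48%, 5.21%, 6.86% and 6.77% of the calls. Alternatives were DESeq2 1.42.0, RLE scaling, no filter, 2000 UMIs, resolution 2, a replicate block, Bio rep 2 in place of 1, and each library left out. Fits with 2 epithelial markers, without clusters mostly of 1 library, with the set-aside HCs and with 1 cochlear HC type were chosen after the data were seen. Protein features were not analysed here.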

Additional observations from a re-analysis of the deposited data

Results flagged for a closer look

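In 40 groups of 4 libraries (each member in each class and organ), 3 had a library far from the others, where chance alone gives about 1 in 20 groups. Ceacam16 in cochlear HCs was at 302 CPM in Bio rep 1 and at 9.52 to 46.9 CPM in the others. Otol1 in vestibular HCs was at 23.3 CPM in Bio rep 5 and at 6.03 to 8.74 CPM in the others. Ceacam16 in vestibular otic epithelial cells other than HCs was at 117 CPM in Bio rep 3 and at 1.15 to 9.32 CPM in the others, and 520 of the UMIs in the Abca13 cluster came from 6 cells.

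Otogl moved in opposite directions between organs in different cells, with every library of each organ on its own side. The cochlea-to-vestibule ratio of pooled CPM was 2.8 in HCs (19 cochlear and 65 vestibular UMIs). It was 0.184 in SC-like cells and 0.643 in the wider otic epithelial class. The difference between these ratios was not tested. With 19 cochlear UMIs in all, the HC libraries were placed by few counts, and Otogl was too low to test there. Of the genes tested in HCs, 30.6% had no overlap. Otogl was also compared with its SC-like level in the same library. The mean share was 55.2% in cochlear and 7.80% in vestibular barcodes with too few UMIs to be kept. It was 21.1% and 1.46% in HCs, and 1.52% and 0.347% in macrophage-like cells. The part of background was not tested.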

How the results depend on the processing

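Of the member differences under all alternatives, 365 kept their direction and side of the threshold, 20 lost the call, 3 gained it and 2 reversed. In SC-like cells all 7 members stayed called under every alternative. The HC values depended on which cells were counted, by alternatives chosen after the data were seen: with only outer HC-like cells Otog was 0.43 (main -0.50), and with only inner HC-like cells Strc was -1.62 (main 0.97). Members called in HCs numbered 4 without the filter on low counts and 4 without cochlea Bio rep 4, against 2. With the set-aside subclusters and mixed cells counted as HCs they numbered 7. That fit includes cells with SC markers and so does not describe HCs alone. Genes called in SC-like cells numbered 3541 without the filter, against 2221. The causes were not tested. Leaving out a library gave 2730 to 4095 calls (6 to 8 members) in all kept cells, 1935 to 2749 (2 to 4 members) in HCs, 1685 to 2981 (7 members) in SC-like cells and 1637 to 2637 (6 to 7 members) in other otic epithelial cells, and 28 to 30 combinations of member and class at 10 CPM or more. Calls whose fold moved by over 1.5 times without a library, beside those in the report, were Tecta without cochlea Bio rep 3 (-9.70 in SC-like, -9.86 in other otic epithelial and -7.39 in all kept cells), Otol1 in all kept cells (-8.66) and Otoa in HCs (-8.35) without the same library, Ceacam16 in SC-like cells without vestibule Bio rep 4 (8.78) and in all kept cells without vestibule Bio rep 3 (7.09), Tectb in other otic epithelial cells without cochlea Bio rep 4 (-4.32), and Tectb (-3.47) and Strc (-2.74) in all kept cells without cochlea Bio rep 1. Member levels moved by more than 1 SD 13 times, with finer clustering or at least 2000 UMIs per cell. Leaving out 1 of 4 libraries cannot shift their mean by more than 1 SD. This measure therefore does not show how far levels depend on a single library.

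Libraries of the 2 organs were not paired by number in the main fits. In no population did every same-numbered pair correlate above 0.1 in its deviations, although most correlations were positive. They were 0.301, 0.174, 0.208 and 0.0726 in SC-like cells. The lowest was 0.0491 in all kept cells, 0.0322 in HCs and -0.0135 in other otic epithelial cells. The highest was 0.349, for Bio rep 4 in all kept cells. File headers name Cell Ranger 5.0.1 for Bio reps 1 and 2, where the labels name 6.1.2. Whether this version, or a batch shared by libraries of the same number, affects levels was not tested. With the replicate block, calls numbered 4111 in all kept cells, 2272 in HCs, 2841 in SC-like cells and 2413 in other otic epithelial cells. Members called there numbered 8, 2, 7 and 7 in that order. Otogl in all kept cells gained its call (-0.79, edgeR adjusted p = 0.015). The low depth of Oc90 and Otop1 limits them to counts.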
